A study of Mus musculus with 12 samples.

Results

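The genes described here are the splicing factors and muscle RNA-binding proteins of the mouse: the SR proteins (symbols starting Srsf), the heterogeneous nuclear ribonucleoproteins (Hnrnp), the subunits of the splicing factor 3 complexes (Sf3a and Sf3b), the numbered RNA-binding motif genes (Rbm), and the Mbnl, Celf and Rbfox families. They were chosen by gene symbol alone, without pseudogene symbols, and 88 genes carry such a symbol in at least 1 of the 2 deposited tables. The table of cultured myoblasts lists 86 of them among 16503 genes, and the table of the Nedd4L genotypes lists 88 among 16169. RNA was sequenced by SMART-seq from 1000 cells per library, with 3 libraries per group. One comparison sets myoblasts, which are WT muscle stem cells (MuSCs) grown for 3 days in serum and basic fibroblast growth factor, against freshly isolated MuSCs of the same 3 WT mice. The other sets MuSCs of Nedd4L-cKO mice (Nedd4L fl/fl Pax7 cre/+, C57BL/6 background) against MuSCs of WT mice, all freshly sorted from males aged 5 to 6 weeks. Here Cre is made from the Pax7 gene and removes exon 15 of Nedd4L, an E3 ubiquitin ligase, and the transcript is still made. Age was not given in the sources used here for the mice of the culture comparison, and the genotype of the WT mice is described no further.

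MuSCs are the resident stem cells of skeletal muscle, held in quiescence until the tissue is injured or the cells are taken into culture. Pre-mRNA splicing is carried out by the spliceosome, in which the SF3 complexes help the U2 particle to grip the branch site, while SR proteins mostly promote the use of nearby splice sites and hnRNPs often oppose it. In muscle, MBNL, CELF and RBFOX proteins and RBM20, RBM24 and RBM38 set exon choice and mRNA stability as cells differentiate. MBNL and CELF proteins act on many of the same exons in opposite directions, and loss of free MBNL underlies the splicing defects of myotonic dystrophy. Splicing itself was not measured: the values are gene totals, so a change in exon use within a gene cannot be seen.

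The windows upstream of the members with the largest changes in culture show what kind of promoter these genes have. Shown are the 2 genes with the largest decreases and the 2 with the largest increases that have a single start in the RefSeq promoter table (GRCm38.p6, the 250 bases before the start, written from 5′ to 3′ on the gene's strand). Capitals mark the E-box CAGCTG, the CCAAT box CCAAT and the GC box GGGCGG, searched on both strands, and adjoining or overlapping matches run together as 1 stretch. Hnrnpa0 lies at chr13:58128557-58128806 on the minus strand, Srsf2 at chr11:116853095-116853344 on the minus strand, Rbm38 at chr2:173021652-173021901 on the plus strand and Rbm14 at chr19:4811635-4811884 on the minus strand.
Hnrnpa0: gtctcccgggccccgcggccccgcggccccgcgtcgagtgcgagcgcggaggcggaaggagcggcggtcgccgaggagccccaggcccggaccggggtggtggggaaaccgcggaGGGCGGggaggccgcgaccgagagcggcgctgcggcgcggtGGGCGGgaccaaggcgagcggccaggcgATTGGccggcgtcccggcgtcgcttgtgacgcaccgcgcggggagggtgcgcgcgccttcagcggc
Srsf2: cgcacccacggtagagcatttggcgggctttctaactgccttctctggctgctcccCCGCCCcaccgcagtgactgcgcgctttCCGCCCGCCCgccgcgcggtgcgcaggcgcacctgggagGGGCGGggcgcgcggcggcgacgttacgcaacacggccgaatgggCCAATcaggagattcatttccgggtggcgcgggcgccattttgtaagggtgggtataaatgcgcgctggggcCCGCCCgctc
Rbm38: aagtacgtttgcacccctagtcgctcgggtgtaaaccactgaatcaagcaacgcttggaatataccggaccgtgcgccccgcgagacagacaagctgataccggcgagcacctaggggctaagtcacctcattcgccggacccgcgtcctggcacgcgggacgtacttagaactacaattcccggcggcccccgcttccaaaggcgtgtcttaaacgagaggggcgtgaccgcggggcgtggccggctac
Rbm14: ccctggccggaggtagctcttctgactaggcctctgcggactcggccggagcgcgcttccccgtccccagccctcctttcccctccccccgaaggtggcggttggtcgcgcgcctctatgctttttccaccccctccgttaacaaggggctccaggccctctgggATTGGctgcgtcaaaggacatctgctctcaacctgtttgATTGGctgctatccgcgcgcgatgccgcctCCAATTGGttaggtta

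All 4 windows are rich in G and C, from 61.6% in Rbm38 to 81.2% in Hnrnpa0, against a median of 52.4% over the 32851 windows of the table. Over the 99 windows of all tested members the median was 60.4%, near the values of Rbm38 and Rbm14 (63.2%). The Hnrnpa0 window holds 2 GC boxes and 1 CCAAT box, the Srsf2 window holds 5 GC boxes and 1 CCAAT box, and the Rbm14 window holds 4 CCAAT boxes, of which 2 overlap. The Rbm38 window holds none of the 3 motifs. Of the members lower in myoblasts, 23 of 25 have a window in the table, and 20 of their 31 windows (64.5%) hold a GC box and 14 (45.2%) a CCAAT box. Of the members higher in myoblasts, 9 of 12 have one, and 5 of their 10 windows hold a GC box and 1 a CCAAT box. Of the 58 windows of members not called, 29 hold a GC box and 28 (48.3%) a CCAAT box. Over all windows the shares are 32.7% for the GC box, 33.8% for the CCAAT box and 13.0% for the E-box. The E-box was found in 1 of the 31, in 2 of the 10 and in 8 of the 58 windows. A gene with several annotated starts counts once per start, and 5 of the 31 windows are those of Hnrnph1. The motif matches are a description of the sequence and name no bound factor.

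Levels are given as RPM, the deposited normalized counts on a scale on which the 6 libraries of a table sum on average to 1000000. The totals lay between 33189802 and 37595659 normalized counts in the culture table and between 40323468 and 50687122 in the genotype table. The true read depth is unknown, so no counting interval can be given. Nedd4l itself ran from 66.7 to 96.5 RPM in WT MuSCs and from 22.5 to 36.3 RPM in Nedd4L-cKO MuSCs. The 10 satellite cell markers, of which 9 fell in culture, summed to between 6147 and 9033 RPM in freshly isolated MuSCs and to between 669.6 and 719.9 RPM in myoblasts. The 13 myofiber genes, of which 10 rose, summed to between 409.4 and 650.3 RPM and then to between 12410 and 28710 RPM. The 7 fibroblast markers, of which 4 fell and 1 rose, summed to between 1402 and 1931 RPM and then to between 135.6 and 178.2 RPM. Of these, Gsn ran from 944 to 1311 RPM and Dpt from 411 to 507 RPM in MuSCs. Pdgfra, Ly6a and Dpp4 were each at 2.39 RPM or less there. The 4 erythroid genes, of which 3 were tested and fell, summed to between 22.6 and 416.4 RPM in MuSCs and to at most 0.314 RPM in myoblasts. Immune markers, of which 3 of 6 were listed, summed to at most 4.35 RPM in every library of both tables. In bulk samples, fewer cells of a type and less RNA per cell cannot be told apart, and the part of these other transcripts in the results below was not tested.

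In myoblasts, RNA-binding factors of both kinds moved: 25 members fell and 12 rose among the 83 that could be tested. The threshold for a call was 0.05 on the p-value from limma, adjusted by Benjamini-Hochberg across the 15345 genes that could be tested. That is 44.6% of the members, close to the 42.8% of all genes tested. By direction, 30.1% of the members fell against 20.6% of all genes and 14.5% rose against 22.2%, and the difference was not tested. When each library was instead scaled to its own total, which moved the median gene to a log2 fold change of 0.14, 23 members (27.7%) fell against 17.7% of all genes and 18 (21.7%) rose against 25.3%. The median log2 fold change of the tested members was -0.15, and that of all tested genes 0.04. In 50 of the 83 (60.2%) no myoblast library overlapped the MuSC libraries, as in 55.2% of all genes. The summed level of all listed members ran from 18760 to 21320 RPM in MuSCs and from 11900 to 15310 RPM in myoblasts, so the groups did not overlap, and neither did their shares of each library's own total (1.79% to 2.00% and 1.26% to 1.58%). Rbm11, Celf5 and Srsf12 were listed but too low to test, at no more than 2.11 RPM in any library.

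**Figure D1:**
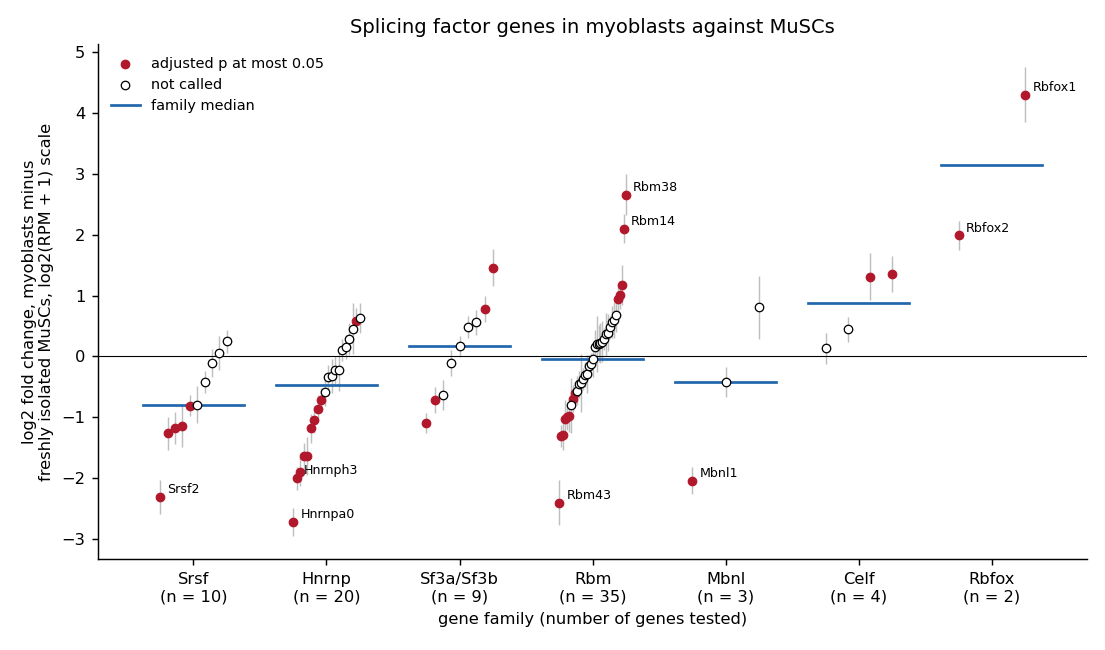
Log2 fold change between myoblasts and freshly isolated MuSCs (log2(RPM + 1) scale, 3 libraries per group, bars are standard errors) for the 83 tested genes by family, with called genes filled and family medians as lines. SR protein and hnRNP genes lie mostly below 0, with family medians of -0.80 and -0.46, while both Rbfox genes lie above it.

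SR proteins bind exonic enhancers through RNA recognition motifs and recruit the spliceosome through arginine and serine rich tails. Of the 10 tested Srsf genes 5 fell (50%, against 20.6% of all genes) and none rose (against 22.2%), a difference that was not tested. The family median over these genes was -0.80. Srsf2, which encodes SC35 (chr11:116740723-116744518 on the minus strand of GRCm39), had the largest decrease among them. Its level was 903, 397 and 606 RPM in MuSC libraries 04, 05 and 06, and 133, 118 and 112 RPM in the myoblast libraries of the same numbers. All 3 myoblast libraries were lower than every MuSC library, and the MuSC libraries differed from each other by more than the whole myoblast range. The log2 fold change was -2.31 ± 0.28 (SE, adjusted p = 0.000284 by limma). Srsf2 shares exon sequence with Mettl23 (2082 bases) and Mfsd11 (1706 bases) on the other strand, and the library kit does not mark strand. Mettl23 fell by 0.73 on the log2 scale and Mfsd11 rose by 0.69, and the part of shared reads in the 3 values was not tested.

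Among the other SR proteins, Srsf5 was the most abundant in MuSCs per length of transcript, at 604 RPM per kb, followed by Srsf3 at 302 and Srsf7 at 293. Srsf10, whose product turns repressor when dephosphorylated, measured 560, 343 and 439 RPM in MuSCs and 263, 157 and 144 RPM in myoblasts (log2 fold change -1.27 ± 0.27). Its groups did not overlap, and neither did those of Srsf5, Srsf3 and Srsf9, whose log2 fold changes were -1.17, -0.81 and -1.15. Srsf7 was the exception among the abundant members. Its level was 750, 698 and 699 RPM in MuSCs and 705, 327 and 304 RPM in myoblasts, so that myoblast library 04 lay within the MuSC range. It was not called (adjusted p = 0.0602), and was called when the mouse was fitted as a replicate block (adjusted p = 0.0433). Srsf1, Srsf4, Srsf6 and Srsf11 were not called, with log2 fold changes of 0.05, -0.11, 0.25 and -0.43, and Srsf4 turned to 0.02 when each library was scaled to its own total.

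Kinases that phosphorylate SR proteins, named here after their values were known, changed in both directions. Clk1, a CDC-like kinase, measured 1083, 585 and 674 RPM in MuSCs and 67.6, 94.2 and 91.2 RPM in myoblasts, a log2 fold change of -3.16 ± 0.26 (adjusted p = 3.15e-05 by limma). Clk4 fell by 1.75 and Clk3 by 1.22 on the log2 scale, each without overlap between the groups. Clk2 was not called. Srpk3, a muscle SR protein kinase and a known target of the MEF2 factors, went the other way. It lay between 0.536 and 1.12 RPM in MuSCs and measured 65.8, 129 and 189 RPM in myoblasts (log2 fold change 6.05 ± 0.40), while Srpk1 (0.04) and Srpk2 (0.58) were not called.

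**Figure D2:**
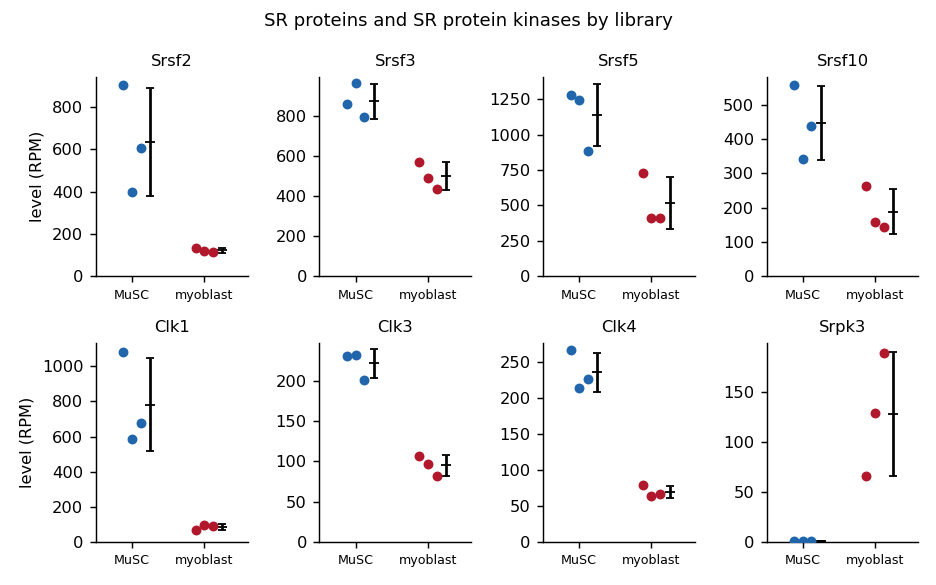
Level in RPM of 4 SR protein genes and 4 SR protein kinase genes in each library (points), with the mean and SD of 3 libraries beside them. Every myoblast library is lower than every MuSC library for all but Srpk3, which lies under 1.2 RPM in MuSCs and at 65.8 RPM or more in myoblasts.

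The hnRNPs coat nascent transcripts and often silence exons. Of the 20 tested Hnrnp genes 9 fell (45%, against 20.6% of all genes) and 1 rose (5%, against 22.2%), with a family median of -0.46. The difference from all genes was not tested. The largest decrease of any member was in Hnrnpa0, an intronless relative of the hnRNP A/B proteins (chr13:58273693-58276370 on the minus strand of GRCm39). It measured 177, 114 and 166 RPM in MuSCs and 19.8, 21.8 and 24.3 RPM in myoblasts, a 6.93-fold lower mean (log2 fold change -2.72 ± 0.23, adjusted p = 3.93e-05 by limma). The related Hnrnpa1, Hnrnpa2b1 and Hnrnpab were not called, with log2 fold changes of -0.23, -0.33 and -0.32 and overlapping groups. Hnrnpa3 was not called either (-0.59, adjusted p = 0.0546), but its groups were apart, at 136 to 211 RPM in MuSCs and 94.4 to 113 RPM in myoblasts. Hnrnpa1 and Hnrnpa3 are close in sequence and can share reads. Hnrnpa2b1 was the most abundant of these 5 per length, at 551 RPM per kb in MuSCs and 442 in myoblasts, against 56.9 and 8.21 for Hnrnpa0.

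The hnRNP H/F proteins, which bind runs of G, also differed among themselves. Hnrnph1 measured 509, 299 and 339 RPM in MuSCs and 122, 85.8 and 93.6 RPM in myoblasts, a log2 fold change of -1.90 ± 0.24. Hnrnph3 fell by 2.00 on the log2 scale, from between 174 and 201 RPM to between 40.0 and 51.2 RPM. Hnrnph2 and Hnrnpf, with log2 fold changes of 0.11 and 0.15, were not called, and their groups overlapped. Hnrnpdl and Hnrnpul2 both fell by 1.64, and Hnrnpd, the AU-rich element binding protein AUF1, fell by 1.18. Among the abundant members, Hnrnpk went from 3567, 3124 and 2869 RPM to 2364, 1640 and 1375 RPM (log2 fold change -0.86 ± 0.22) and Hnrnpc fell by 1.04. Hnrnpu, a nuclear scaffold protein, was the sole Hnrnp gene called higher, at 0.59 ± 0.20 (adjusted p = 0.0447). That call was lost with limma's plain settings (adjusted p = 0.0811) and without any of 4 of the 6 libraries (adjusted p from 0.0740 to 0.147 without MuSC 05, MuSC 06, myoblast 04 or myoblast 05). Hnrnpm was not called (log2 fold change 0.63, adjusted p = 0.0626), and was called with the mouse as a replicate block (0.0493), with own-total scaling (0.0263) and without myoblast 06 (0.0241). Hnrnpr fell by 0.72 (adjusted p = 0.0173), a call lost without MuSC 04 (0.0571), MuSC 05 (0.0591) or myoblast 06 (0.0633).

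Of the 9 tested SF3 subunits 2 rose and 2 fell, or 44.4% called against 42.8% of all genes tested. Both that rose belong to SF3a and both that fell belong to SF3b. Sf3b1, the large subunit that contacts the branch site and is recurrently mutated in myeloid disease, measured 703, 642 and 730 RPM in MuSCs and 293, 353 and 326 RPM in myoblasts (log2 fold change -1.09 ± 0.16). Sf3b6, the p14 subunit at the branch site, fell by 0.71, but its adjusted p of 0.0270 rose to between 0.0551 and 0.105 without MuSC 05, MuSC 06, myoblast 05 or myoblast 06, and to 0.0630 with own-total scaling. Sf3a2 rose from 5.69, 3.59 and 5.25 RPM to 16.8, 12.8 and 15.3 RPM, a log2 fold change of 1.46 ± 0.31, and Sf3a1 rose by 0.77 ± 0.22. The Sf3a1 call (adjusted p = 0.0187) was lost without MuSC 04, MuSC 06, myoblast 05 or myoblast 06, with adjusted p from 0.0517 to 0.0831. Sf3b2 (0.16), Sf3b3, Sf3b4, Sf3b5 (-0.64) and Sf3a3 (-0.11) were not called, so the split by complex holds for the called subunits alone. Sf3b4 (0.56) and Sf3b3 (0.48) came closest, at adjusted p = 0.0508 and 0.0529, and neither had overlapping groups. Sf3b4 was called with median-of-ratios scaling (0.0483), with own-total scaling (0.0199) and with a filter on every library (0.0487). Summed over the 9 subunits, the level was 1529 to 1682 RPM in MuSCs and 1194 to 1376 RPM in myoblasts.

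The Rbm symbol gathers genes that share an RNA recognition motif and little else. Of the 35 tested 5 rose and 8 fell, and the median was -0.05. Rbm43 measured 19.9, 32.4 and 16.9 RPM in MuSCs and 5.02, 3.27 and 2.25 RPM in myoblasts (log2 fold change -2.41 ± 0.37). Rbm39, a U2AF-related coactivator and the target of aryl sulfonamide degraders, fell from 762, 560 and 618 RPM to 270, 236 and 269 RPM, a log2 fold change of -1.31 ± 0.18. Rbm7, an adaptor of the nuclear exosome, fell by 1.29 and Rbm25 by 1.00. Rbm14, a paraspeckle protein also known as CoAA, rose from 13.5, 13.7 and 15.8 RPM to 65.4, 77.9 and 52.6 RPM (log2 fold change 2.10 ± 0.24). The groups of all these genes stood apart. Rbm34 rose by 0.95. Rbm10, a repressor of exon inclusion, rose by 1.01, whereas its relative Rbm5 was not called at -0.30. Rbm8a, which encodes the exon junction component Y14, fell by 0.69 (adjusted p = 0.0351), and the call was lost with the replicate block (adjusted p = 0.0517), with limma's plain settings (0.0630), with own-total scaling (0.0667) and without each library but myoblast 04 (0.0631 to 0.134). Further lower calls were lost when any of several libraries was left out. Rbm18 had adjusted p up to 0.0662 without MuSC 04, MuSC 05 or myoblast 05, and Rbm26 up to 0.0693 without MuSC 06 or myoblast 05. For Rbm48 it was up to 0.0943 without MuSC 05, MuSC 06, myoblast 05 or myoblast 06. For Srsf9, among the SR proteins, it was up to 0.0996 without MuSC 04 or MuSC 06. The near-identical pairs Rbm8a and Rbm8a2, Rbm4 and Rbm4b, and Rbm12b1 and Rbm12b2 can share reads, so their separate values are uncertain.

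Among the factors best known in muscle, Mbnl1 fell while both Rbfox genes, Celf1, Celf4, Rbm20 and Rbm38 rose. The myofiber genes given above moved in the same libraries, and their part in these changes was not tested. Mbnl1 (chr3:60380102-60537183 on the plus strand of GRCm39) fell from 662, 672 and 518 RPM in MuSCs to 177, 165 and 111 RPM in myoblasts, a 4.08-fold lower mean (log2 fold change -2.04 ± 0.22, adjusted p = 0.000154 by limma). Mbnl2 measured 159, 164 and 180 RPM and then 85.6, 149 and 152 RPM. Its groups did not overlap, but at -0.42 ± 0.24 it was not called (adjusted p = 0.197). Mbnl3 stayed under 5 RPM in every library and was not called (0.81 ± 0.52).

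Both Rbfox genes, whose products bind GCAUG beside regulated exons, rose. Rbfox2 (chr15:76963189-77191303 on the minus strand of GRCm39) went from 60.2, 66.3 and 43.6 RPM to 176, 251 and 257 RPM, a 4.03-fold higher mean (log2 fold change 1.99 ± 0.24, adjusted p = 0.000247). Rbfox1 was listed at 0, 0.305 and 0.786 RPM in MuSCs and reached 13.3, 30.0 and 39.3 RPM in myoblasts. The log2 fold change of Rbfox1, 4.30 ± 0.45, depends on the added 1 RPM because the MuSC values are so near 0. Per length of transcript Rbfox2 was the more abundant in myoblasts, at 103 RPM per kb against 6.26 for Rbfox1.

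Celf1, a promoter of embryonic splicing patterns and a decay factor for GU-rich mRNAs, rose from 30.1, 26.8 and 39.5 RPM to 54.0, 102 and 103 RPM (log2 fold change 1.36 ± 0.30, adjusted p = 0.00615). Celf4 rose by 1.31 ± 0.39 from a low level of 3.59 to 10.7 RPM. Its adjusted p of 0.0234 became 0.0718 without MuSC 06 and 0.0651 without myoblast 05. Celf2 had the higher level of the family in both groups, 20.8 and 28.7 RPM per kb. It was not called (0.45 ± 0.20, adjusted p = 0.109), and was called with own-total scaling (0.0452) and without myoblast 04 (0.0146). Celf3 was under 1 RPM everywhere.

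RBM20, RBM24 and RBM38 are expressed in striated muscle and govern titin splicing, muscle exons and the stability of p21 mRNA. Rbm38 rose from 11.2, 9.42 and 6.28 RPM to 40.6, 66.7 and 81.8 RPM, a 7.02-fold higher mean (log2 fold change 2.66 ± 0.33, adjusted p = 0.000342). Rbm20 rose from 24.3, 16.1 and 10.3 RPM to 32.6, 34.4 and 46.6 RPM (1.18 ± 0.33, adjusted p = 0.0197), a call lost without MuSC 05 (0.0539), MuSC 06 (0.0633) or myoblast 06 (0.0724). Rbm24 was not called at 0.60 ± 0.29 (adjusted p = 0.128), and its MuSC range of 26.0 to 44.1 RPM overlapped the 41.1 to 72.6 RPM of myoblasts. Without myoblast 04 it was called, at 0.82 (adjusted p = 0.0384).

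**Figure D3:**
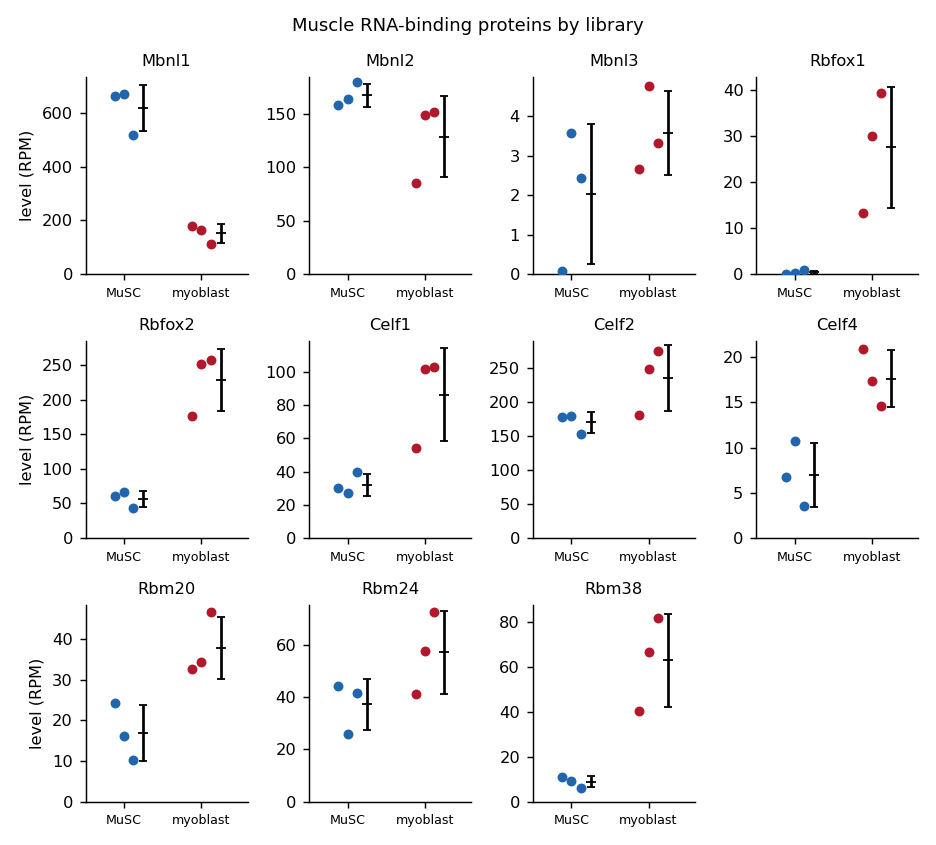
Level in RPM of 11 muscle RNA-binding protein genes in each library of freshly isolated MuSCs and myoblasts (points), with mean and SD of 3 libraries. Mbnl1 lies at 518 RPM or more in MuSCs and at 177 RPM or less in myoblasts, while Rbfox1, Rbfox2, Celf1, Celf4, Rbm20 and Rbm38 are higher in every myoblast library.

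A factor applied to a whole library cancels in a ratio of 2 genes, while normalization factors that differ between genes, which tximport can pass to DESeq2, would not. Within libraries 3 such ratios were taken per length of transcript after the values had been seen, so they carry no test. The ratio of Mbnl1 to Celf1 was 31.5, 35.9 and 18.8 in MuSC libraries 04, 05 and 06 and 4.70, 2.32 and 1.55 in the myoblast libraries of the same numbers. Mbnl1 to Mbnl2 was 1.71, 1.68 and 1.18, and then 0.847, 0.452 and 0.300. Whether it lies above or below 1 depends on the canonical transcript lengths used, 5587 bases for Mbnl1 and 2284 for Mbnl2. In RPM, Mbnl1 was the higher in myoblast libraries 04 (177 against 85.6) and 05 (165 against 149). Mbnl2 was the higher in myoblast library 06 (152 against 111). In the freshly sorted WT MuSCs of the genotype comparison the ratio of Mbnl1 to Mbnl2 per length was 0.805, 0.828 and 0.807. In Nedd4L-cKO MuSCs it was 0.528, 0.340 and 0.324. Rbfox2 to Mbnl1 went from between 0.212 and 0.249 to between 2.50 and 5.81. In all 3 ratios the 2 groups of the culture table were apart.

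The rest of the splicing machinery was followed in a list of 118 genes chosen with earlier results of these data known. Of 117 tested 18 rose and 28 fell, with a median log2 fold change of -0.14. That is 39.3% called against 42.8% of all genes, and own-total scaling gave 23 higher and 27 lower. Ptbp1, a repressor of neuronal and muscle exons that declines in differentiation of many lineages, rose by 1.94 ± 0.24, from between 19.5 and 23.5 RPM to between 68.1 and 113 RPM, while Ptbp2 fell by 0.79. Qk, which encodes the STAR protein Quaking, fell from 647, 382 and 407 RPM to 95.7, 188 and 214 RPM. Of the 13 genes for assembly of small nuclear ribonucleoproteins 4 rose and none fell, among them Prmt5 (1.49) and Gemin5 (1.34), and the median was 0.17. Of 8 U1 genes 4 fell and Snrnp70 rose by 1.10, with a median of -0.44. Over all genes tested 22.2% rose and 20.6% fell, and the difference of either list from these shares was not tested. Dhx16, a spliceosomal helicase, fell by 2.58 on the log2 scale. The Ptbp2 call (adjusted p = 0.0157) was lost without myoblast 06 (0.0625).

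Between Nedd4L-cKO and WT MuSCs, no member passed. The call here required an adjusted p of at most 0.05, a log2 fold change of at least 1 in either direction and a mean of at least 5 RPM, as 100 of 15304 genes did (0.653%). At the adjusted p alone limma called 120 genes (0.784%), and again 0 of the 86 tested members. At an unadjusted p under 0.05 there were 8 members, 3 higher and 5 lower in Nedd4L-cKO MuSCs, which is 9.30% where all genes gave 14.6%. The groups did not overlap for 13 members (15.1%), against 19.3% of all genes. The median absolute log2 fold change was 0.25 for the members and 0.31 for all genes tested. Summed over the members, WT libraries held 17680 to 19700 RPM and Nedd4L-cKO libraries 15800 to 21450 RPM, so the ranges overlapped. As shares of each library's own total they did not, at 1.91% to 2.02% in WT and 1.71% to 1.85% in Nedd4L-cKO MuSCs. Scaling to the own total moved the median gene too, to a log2 fold change of -0.09, against -0.20 for the median member. The difference was not tested, and no member was called with that scaling. Rbm44 and Rbm46 could not be tested, and Rbm46 was listed at 0 in all 3 Nedd4L-cKO libraries and at up to 1.56 RPM in WT.

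The member nearest to a call was Sf3b4 (chr3:96079644-96085281 on the plus strand of GRCm39), the SF3b subunit whose loss of a copy causes Nager syndrome in humans. It measured 91.2, 62.2 and 42.4 RPM in WT MuSCs and 4.16, 6.10 and 33.9 RPM in Nedd4L-cKO MuSCs. The third Nedd4L-cKO library stood apart from the other two and lay near the lowest WT value, though the groups did not overlap. The log2 fold change was -2.54 ± 0.59 (unadjusted p = 0.00116, adjusted p = 0.0807 by limma). Without Nedd4L-cKO library 03 it was -3.38 (adjusted p = 0.00798), the single member called in any alternative. Snrpc, a U1 protein outside the families above, showed the same arrangement at 69.1, 58.2 and 63.3 RPM against 14.8, 13.0 and 47.6 RPM (log2 fold change -1.55, adjusted p = 0.122), and was likewise called without that library (-2.11, adjusted p = 0.00984). Sf3b6 lay higher, at 126, 127 and 134 RPM against 232, 197 and 163 RPM (0.59 ± 0.24, adjusted p = 0.286). No other SF3 subunit had an unadjusted p under 0.05.

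Of the muscle factors, Rbfox2 and Mbnl1 had groups that were tight and apart. Rbfox2 measured 38.3, 42.9 and 44.6 RPM in WT and 82.7, 71.8 and 78.6 RPM in Nedd4L-cKO MuSCs. The log2 fold change was 0.87 with a 95% interval of 0.36 to 1.39 (unadjusted p = 0.00301, adjusted p = 0.121 by limma). Mbnl1 measured 479, 604 and 497 RPM and then 312, 297 and 281 RPM, a log2 fold change of -0.82 with an interval of -1.32 to -0.32 (adjusted p = 0.132). Neither passed, and both lay within the log2 fold change limit of 1. Rbm38 was low, with 6.74, 4.19 and 1.35 RPM against 0.386, 0.315 and 1.58 RPM, and its groups overlapped (log2 fold change -1.44, adjusted p = 0.185). Over the alternatives its adjusted p ran from 0.0488 to 0.401, but it was called in none, as a call also needs a mean of at least 5 RPM. Celf4 had groups apart at a low level, 4.28 to 6.70 RPM and 6.78 to 9.48 RPM. Mbnl2, Celf1, Celf2, Celf4, Rbm20 and Rbm24 had log2 fold changes between -0.23 and 0.48 and adjusted p-values of 0.549 or more. Mbnl3, Rbfox1, Celf3 and Celf5 were under 3 RPM in every library.

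The remaining members with an unadjusted p under 0.05 were Hnrnpr, Rbm12 and Rbm28. Hnrnpr measured 234, 284 and 227 RPM in WT and 198, 136 and 151 RPM in Nedd4L-cKO MuSCs (-0.63, adjusted p = 0.280). Rbm12 was lower (-0.76) and Rbm28, a nucleolar protein of ribosome assembly, higher (0.68), at adjusted p = 0.292 and 0.291. Just outside lay Hnrnpm (0.50), Rbm17 (0.53) and Hnrnpc (0.52), all higher in Nedd4L-cKO MuSCs, with Hnrnpm alone showing no overlap. Among the Srsf genes the widest differences were Srsf12 (0.49), which stayed under 4 RPM, and Srsf4 (-0.48), and no Srsf gene had groups apart. Srsf2, the most changed SR gene in culture, overlapped here with 659, 726 and 402 RPM in WT and 336, 386 and 625 RPM in Nedd4L-cKO MuSCs.

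**Figure D4:**
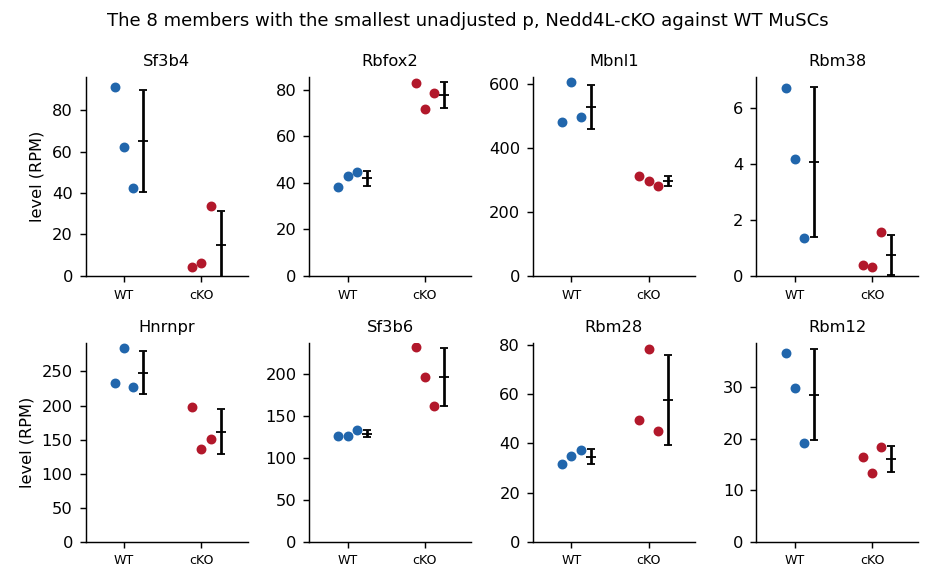
Level in RPM of the 8 members with an unadjusted p under 0.05 in each WT and Nedd4L-cKO library (points), with mean and SD of 3 libraries. Rbfox2 and Mbnl1 show tight groups that do not overlap, and for Sf3b4 the third Nedd4L-cKO library, at 33.9 RPM, lies far above the other two and its lower SD bar is cut at 0.

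Of the 116 other splicing genes tested, 1 was called (0.862% against 0.653% of all genes). Cirbp, the cold-inducible RNA-binding protein, measured 135, 145 and 128 RPM in WT and 60.4, 48.9 and 50.6 RPM in Nedd4L-cKO MuSCs (log2 fold change -1.34 ± 0.23, adjusted p = 0.0293 by limma). The call was lost without WT library 01 (0.0758), WT library 02 (0.136) or Nedd4L-cKO library 02 (0.133), and with limma's plain settings (0.0651). In culture Cirbp was not called (-0.44). The 13 myofiber markers, of which 1 passed at the adjusted p alone, summed to 307.4 to 569.4 RPM in WT and 714.5 to 948.5 RPM in Nedd4L-cKO MuSCs. The 4 mural markers, of which 0 passed, summed to 1141 to 1884 RPM and 2144 to 3159 RPM, with Acta2 and Rgs5 the highest in every library. Acta2 is not particular to mural cells here. It ran from 1610 to 2400 RPM in the myoblasts of the culture comparison, where Pdgfrb was at 0.644 RPM or less. The 4 erythroid genes, of which 0 passed, summed to 0.108 to 496.2 RPM in WT and 0.0520 to 1091 RPM in Nedd4L-cKO MuSCs. For the 10 satellite cell markers, of which 2 passed lower, the sums were 5996 to 10130 RPM and 5105 to 8407 RPM. For 6 markers of activated or cycling myoblasts, of which 1 passed higher, they were 166.5 to 848.1 RPM and 420.8 to 784.9 RPM. The median log2 fold changes of these 2 lists were -0.55 and 1.11. The 7 fibroblast markers, of which 0 passed, summed to 1559 to 2911 RPM and 1315 to 3111 RPM. The part of these transcripts in the differences between genotypes was not tested.

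The 2 comparisons used different mice and separately normalized tables, so their fold changes can be set side by side. Over the 83 genes tested in both, the log2 fold changes had a Pearson correlation of -0.06 and a Spearman correlation of 0.04, a description across genes that are not independent. Of the 25 members that fell in myoblasts, 15 had a negative and 10 a positive log2 fold change in Nedd4L-cKO MuSCs, with a median of -0.12. Of the 12 that rose, 8 were negative and 4 positive, with a median of -0.19. Mbnl1 (-2.04 and -0.82) and Rbfox2 (1.99 and 0.87) had the same sign in both. Rbm38 (2.66 and -1.44) and Sf3b4 (0.56 and -2.54) had opposite signs. The within-library ratio of Rbfox2 to Mbnl1 ran from 0.179 to 0.226 in WT and from 0.608 to 0.705 in Nedd4L-cKO MuSCs, against 2.50 or more in myoblasts. That ratio was chosen after its parts were seen and was not tested.

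**Figure D5:**
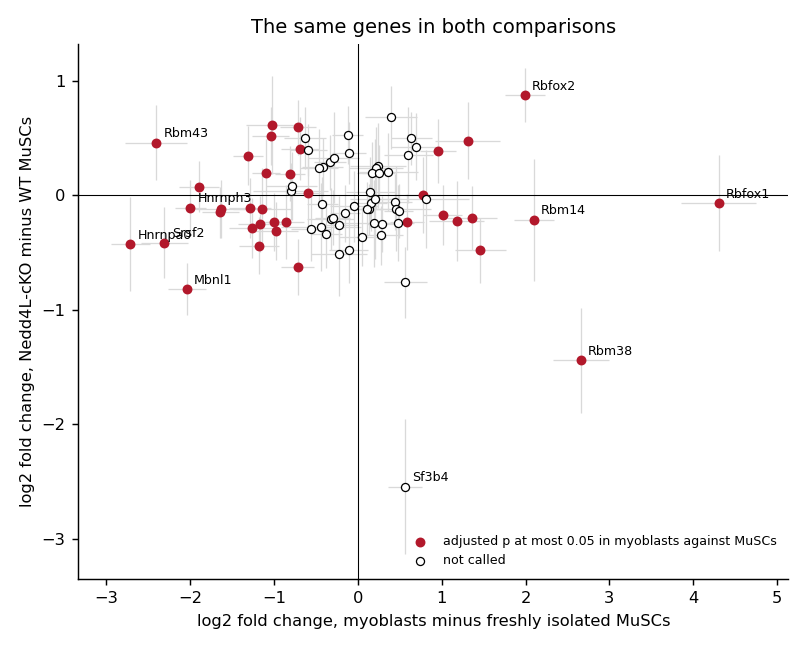
Log2 fold change of 83 genes in myoblasts against MuSCs (horizontal) and in Nedd4L-cKO against WT MuSCs (vertical), with standard errors, filled where called in myoblasts. The points scatter without a common direction (Pearson correlation -0.06 across genes), with Rbfox2 and Mbnl1 at the same sign in both and Rbm38 and Sf3b4 at opposite signs.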

How the data were processed

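RNA was measured in 12 libraries, 3 for each of 4 groups taken from the sample labels. Transcript abundances came from kallisto 0.46.1 with a GENCODE basic annotation, tximport turned them into gene values, and the authors deposited the signal that DESeq2 normalization then gave (normalized counts), with one table per comparison. Whole reads could not be recovered, so depth is unknown and the values were not treated as counts. Deposited fold changes and p-values were not used, nor were 18 further columns of per-sample values. Members were found by symbol. The members and gene lists were chosen with earlier results of these data known.

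Values were scaled to RPM by the mean library total of the table. A gene had to reach 10 normalized counts in 3 or more libraries, and was tested on log2(RPM + 1) by limma 3.58.1 in R 4.3.3, with trend and robust moderation, and p-values were adjusted by Benjamini-Hochberg within each table. Fold changes on this scale understate those of low genes. Named genes were all listed Mbnl, Celf and Rbfox genes with Rbm20, Rbm24 and Rbm38, the 10 largest called changes in each direction in culture without overlap, the 5 smallest p-values in each direction between genotypes, any gene with an adjusted p of at most 0.05 there, and the 2 largest absolute changes of each of the Srsf, Hnrnp and Sf3 families in each comparison. Further called members and companion genes were named after their values were seen. Lengths, those of the canonical transcript of each gene, and exon overlaps are from GENCODE vM39 on GRCm39, and promoter windows from RefSeq on GRCm38.p6. Of the 88 members 55 share exon sequence with a gene on the other strand, and the kit does not mark strand.

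The libraries 04, 05 and 06 of MuSCs and myoblasts come from the same mice by the series' design. Their deviations from the group means correlated at -0.03, -0.01 and 0.02, and the mouse as a block was an alternative fit.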

Additional observations from a re-analysis of the deposited data

How the results depend on the processing

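The count of members called in culture was 37 and lay between 27 and 41 under the other scalings, pseudocount, filters, moderation and a log2 fold change limit of 1, and between 28 and 45 when 1 library was left out. With the mouse as a replicate block it was 38. The 3 calls that this block changed are given with their genes. Of the 37 called members, 26 kept the adjusted p at or under 0.05 in every alternative and 23 of these also pass the log2 fold change limit. Of the other 11, 8 went above 0.05 only when a library was left out. Own-total scaling gave 23 members lower and 18 higher, against 25 and 12. Between genotypes the count of members was 0 in every alternative but the one without Nedd4L-cKO library 03, so that leaving out libraries gave 0 to 1. The genotype libraries share only a number, and their replicate block gave 0 members. Their same-numbered deviations correlated at 0.02, -0.02 and -0.18. Of the companion genes 46 were called in culture (37 to 54 over all alternatives, 44 with the replicate block) and 1 between genotypes, which became 0 with limma's plain settings or the replicate block and 0 to 2 when a library was left out.

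The alternatives for the companion genes were added after seeing the data. The values that changed sign had not been called. With own-total scaling, Rbm17 in culture became 0.0139, Srsf4 in culture 0.0236 and Hnrnph1 between genotypes -0.0538, and with a pseudocount of 0.1 Rbfox1 between genotypes became 0.0930. Leaving out libraries took Srsf4 in culture from -0.27 to 0.0379. Between genotypes it took Celf1 from -0.37 to 0.0207, Celf2 from -0.19 to 0.0873, Hnrnph3 from -0.19 to 0.0252, Mbnl3 from -0.45 to 0.44, Rbfox1 from -0.50 to 0.25, Rbm7 from -0.28 to 0.12, Rbm14 from -0.71 to 0.19, Rbm20 from -0.55 to 0.0499, Rbm24 from -0.10 to 0.71 and Sf3b1 from -0.0064 to 0.46. The causes were not tested. With 3 libraries per group and unknown depth, small differences in low genes could not be resolved.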
